A study of Mus musculus with 8 samples.

Results

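The miR-130 and miR-301 family was taken by name from the array annotation and has 4 members among the 1881 mouse miRNAs on the array: mmu-miR-130a-3p, mmu-miR-130b-3p, mmu-miR-301a-3p and mmu-miR-301b-3p (the prefix mmu, for mouse, is left out below). In mouse kidney 2 of them, miR-130a-3p and miR-301a-3p, were well above background in every sample, and the other two in none. Kidney samples of male Akita mice (strain C57BL/6-Ins2Akita/J, 4 samples) were set against those of male C57BL/6J mice (4 samples). Each sample was measured on 1 one-colour array of Cy3-labelled total RNA. Akita mice carry a dominant germline mutation in Ins2, an insulin gene. Its misfolded product harms pancreatic beta cells, which makes the mice diabetic, and the allele is present in all cells and not in the kidney alone. The controls are called Mock in the sample titles, with no treatment described. The labels give an age of 36 without a unit for both groups. The labels do not say whether the samples are separate animals, and p-values here measure only the spread between these samples.

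MicroRNAs find their target mRNAs mainly through the seed, bases 2 to 8 from the 5′ end, and members that share a seed can repress the same mRNAs. The miR-130 and miR-301 family is known for repressing the nuclear receptor PPARgamma in fat and vascular cells, and in pulmonary vessels it is tied to vascular cell proliferation and matrix stiffening. In endothelial cells miR-130a is known as a pro-angiogenic miRNA. The kidney holds vascular, tubular, interstitial and blood cells, and in a whole-kidney extract fewer cells of a type and less RNA per cell cannot be told apart.

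The mature sequences show what the members share and where the array can tell them apart. They are RefSeq entries on GRCm38.p6, where 3 of the 4 members matched. Capitals mark the seed.
miR-130a-3p: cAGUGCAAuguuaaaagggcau
miR-130b-3p: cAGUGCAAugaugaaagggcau
miR-301a-3p: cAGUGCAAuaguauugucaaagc
The seed AGUGCAA is the same in all 3. Behind it they part: miR-130a-3p and miR-130b-3p are identical at 20 of 22 bases, while miR-130a-3p and miR-301a-3p are identical at 12 of 22 bases, 9 of them a single run from the 5′ end. The longest probe of each shows that the array reads mainly this 3′ part of the miRNA.
probe of miR-130a-3p: atgcccttttaacattgca
probe of miR-130b-3p: atgccctttcatcattgc
probe of miR-301a-3p: gctttgacaatactattgcac
The first of these pairs with bases 4 to 22 of miR-130a-3p, the second with bases 5 to 22 of miR-130b-3p and the third with bases 3 to 23 of miR-301a-3p. The probe of miR-130b-3p differs from miR-130a-3p at 2 bases.

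The members lie at 3 loci. The hairpin of miR-130a lies at chr2:84741115-84741178 on the minus strand, outside the span of any other annotated gene. The hairpin of miR-301a lies at chr11:87113004-87113089 on the plus strand, within the span of Ska2, a gene of the spindle and kinetochore complex. The hairpins of miR-130b, at chr16:17124061-17124142, and of miR-301b, at chr16:17124400-17124496, both on the minus strand, are 257 bases apart within the span of the protein-coding gene 2610318N02Rik (all GRCm38.p6). The 2 members above background thus come from separate loci, and both members of the chromosome 16 pair were below background.

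MiR-130b-3p and miR-301b-3p could not be measured in either group. Of the spots for miR-130b-3p, 0 of 233 over the 8 arrays were marked well above background by the extraction software, and of those for miR-301b-3p 0 of 237. The brighter of the 2 probes of miR-130b-3p read 1.96, 0.89, 2.07 and 0.83 intensity units before scaling in Akita kidneys 1 to 4, against 1.81, 2.86, 3.25 and 3.87 in control kidneys 1 to 4. All 8 values lay below the 95th percentile of the negative control spots, which was 5.79 to 8.95 in Akita arrays and 6.76 to 7.34 in control arrays. The 4 probes of miR-301b-3p read between -3.74 and 1.32 in Akita kidneys and between -5.60 and 2.41 in control kidneys. The dimmest probes that counted as well above background read 17.7 to 19.4 in Akita arrays and 19.0 to 19.9 in control arrays. The near-zero reading of the miR-130b-3p probes stood beside 818.7 to 1501 units on the probes of miR-130a-3p, the target from which they differ at 2 bases. No fold change is given for either member, and these values do not show that the miRNAs are absent from the kidney.

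**Figure D1:**
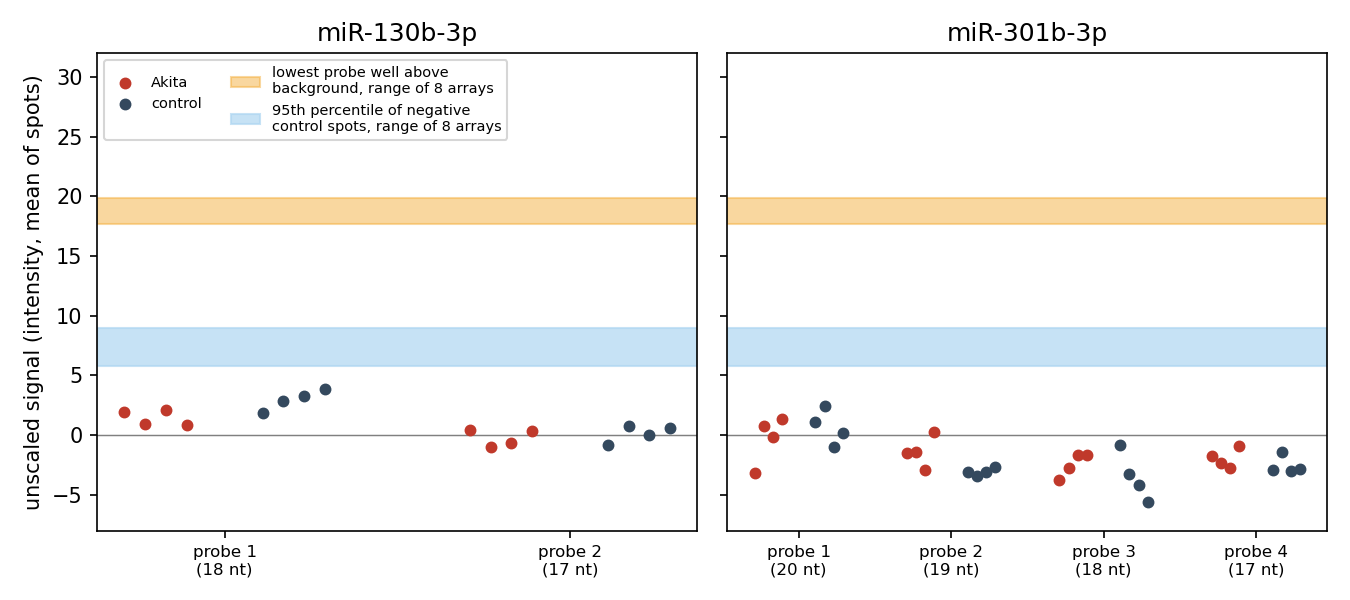
Unscaled signal (intensity, mean over spots) of each probe of miR-130b-3p and miR-301b-3p, 1 point per array, Akita (red) left of control (dark blue) for each probe. The bands give the range over 8 arrays of the 95th percentile of negative control spots (blue) and of the lowest probe well above background (orange); every point lies below both bands.

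The deposited value table gives numbers for these 2 members all the same. In the scanner files their summary signal per miRNA is 0.1 on all 8 arrays, the minimum that the extraction software writes, as it is for 1437 of the 1881 miRNAs. In the authors' deposited table the rows of both members are equal to each other on every array. They hold 1.03, 1.11, 1.13 and 1.22 in Akita kidneys 1 to 4 and 0.951, 0.950, 0.970 and 0.700 in control kidneys 1 to 4. In total 1448 of the 1902 rows hold these same 8 values (tolerance 1e-09). The groups do not overlap in these rows, with a log2 difference of 0.34, although the signal behind the rows of both members was the same on all arrays.

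To compare the measured members, arrays were scaled to a common 75th percentile, taken over 451 probes that were well above background throughout. The signals of a miRNA's probes were then summed. The limma fit held 285 miRNAs, those above background in every sample of either group. A miRNA is called at an adjusted p under 0.05. Of the 2 tested members 0 were called, by limma with and without a variance trend, and 1, miR-301a-3p, had an unadjusted p under 0.05, as did 97 of the 285 tested miRNAs (34%). Over all tested miRNAs 42 were called, which is 14.7% (8.42% higher and 6.32% lower in Akita kidneys). For scale, the called log2 fold changes ran from -1.26, of the NF-kappaB-induced miR-146a-5p, to 1.31, of the p53-induced miR-34a-5p.

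MiR-130a-3p, the member linked to angiogenesis, did not pass the threshold. Its scaled signal was 2271, 1905, 2243 and 2449 intensity units in Akita kidneys 1 to 4, against 2224, 2565, 2511 and 2421 in control kidneys 1 to 4. Akita kidney 2 was the lowest of the 8, and the other Akita kidneys lay within the range of the controls. On the log2 scale it averaged 11.11 ± 0.15 in Akita kidneys and 11.24 ± 0.09 in control kidneys (SD, n = 4 each). The log2 fold change was -0.14 ± 0.09 SE (95% interval -0.34 to 0.07, limma adjusted p = 0.31). Its 2 probes gave -0.14 and -0.14, and the coefficient of variation between the 15 spots of a probe on an array was 3.51% to 6.74%.

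MiR-301a-3p, whose hairpin lies within Ska2, stood higher in most Akita kidneys without passing the threshold. Its scaled signal was 236.9, 189.8, 219.8 and 252.1 intensity units in Akita kidneys 1 to 4, against 169.1, 200.6, 183.5 and 183.8 in control kidneys 1 to 4. Akita kidneys 1, 3 and 4 lay above all 4 controls, and Akita kidney 2 lay within the control range. It averaged 7.80 ± 0.18 in Akita kidneys and 7.52 ± 0.10 in control kidneys on the log2 scale (SD, n = 4 each). The log2 fold change was 0.28 ± 0.10 SE, 1.21-fold, with a 95% interval of 0.06 to 0.50 and a limma adjusted p = 0.082. Its 2 probes gave 0.26 and 0.32, with a spot-to-spot coefficient of variation of 4.29% to 14.5% on an array. In neither member did the groups separate fully, while the groups did not overlap in 22.8% of all tested miRNAs (Akita above control in 13.7%, below in 9.12%).

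**Figure D2:**
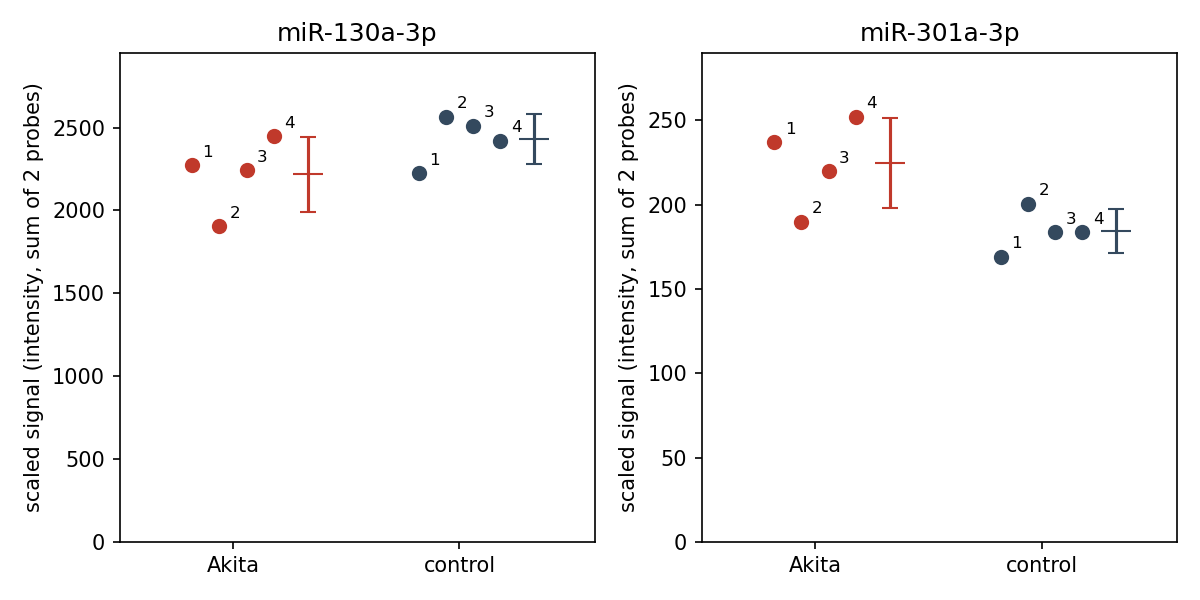
Scaled signal (intensity, sum of 2 probes) of miR-130a-3p (left panel) and miR-301a-3p (right panel) in each Akita (red) and control (dark blue) kidney, numbered by replicate, with the group mean and SD beside the points (n = 4). Akita kidney 2 is the lowest Akita sample in both panels, at 1905 and 189.8 units.

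Set against each other on the same array, the 2 members separated the groups. This difference does not depend on dividing an array by a factor, and Akita kidney 2, low for both members, falls in with its group. The log2 signal of miR-130a-3p minus that of miR-301a-3p was 3.26, 3.33, 3.35 and 3.28 in Akita kidneys 1 to 4, against 3.72, 3.68, 3.77 and 3.72 in control kidneys 1 to 4. All 4 Akita values lay below all 4 control values. The mean was 3.30 ± 0.04 in Akita kidneys and 3.72 ± 0.04 in control kidneys (SD, n = 4 each), a difference of -0.42 ± 0.03 SE, or 0.749 times the control ratio. An exact two-sided permutation test gave p = 0.0286, the smallest that 4 against 4 allows, with 1 pair compared. The size of either value of the 2 members says nothing about which is more abundant, since their probes differ.

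**Figure D3:**
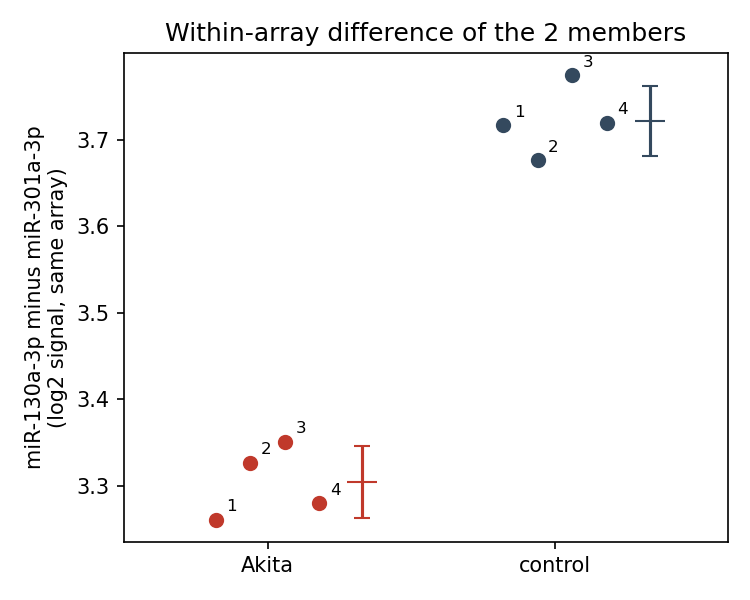
Log2 signal of miR-130a-3p minus that of miR-301a-3p on the same array in Akita (red) and control (dark blue) kidneys, numbered by replicate, with group mean and SD (n = 4). The Akita values lie between 3.26 and 3.35 and the control values between 3.68 and 3.77; the vertical axis does not start at 0.

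Such a separation was common on these arrays. Of the 32896 pairs that can be formed from the 257 miRNAs above background on all arrays, 26.1% had groups that did not overlap in the same within-array difference, and 20.8% differed by as much as this pair or more. MiR-130a-3p was separated in this way from 94 of its 256 partners and miR-301a-3p from 100 of 256. The difference between the 2 members varied little between samples of a group under the scaling used here, but a difference of its kind is not particular to them.

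Which member was called depended on the scaling. Before scaling the Akita arrays were dimmer, with a 75th percentile of 446, 435, 433 and 369 intensity units in Akita arrays 1 to 4 against 495, 503, 508 and 520 in control arrays 1 to 4, and the 2 sets did not overlap. Without any scaling miR-130a-3p was lower in Akita kidneys past the threshold (-0.41, adjusted p = 0.0060) and miR-301a-3p stood at 0.0085 (adjusted p = 0.96). With quantile normalization miR-301a-3p was higher past the threshold (0.28, adjusted p = 0.046) and miR-130a-3p stood at 0.0092 (adjusted p = 0.96). The labelling spike-ins, RNAs added in a fixed amount, gave -0.37 for miR-130a-3p (adjusted p = 0.010) and 0.042 for miR-301a-3p (adjusted p = 0.72). Against the scaling used here, the median of all tested miRNAs shifted by -0.27 without scaling and by -0.24 with the spike-ins.

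**Figure D4:**
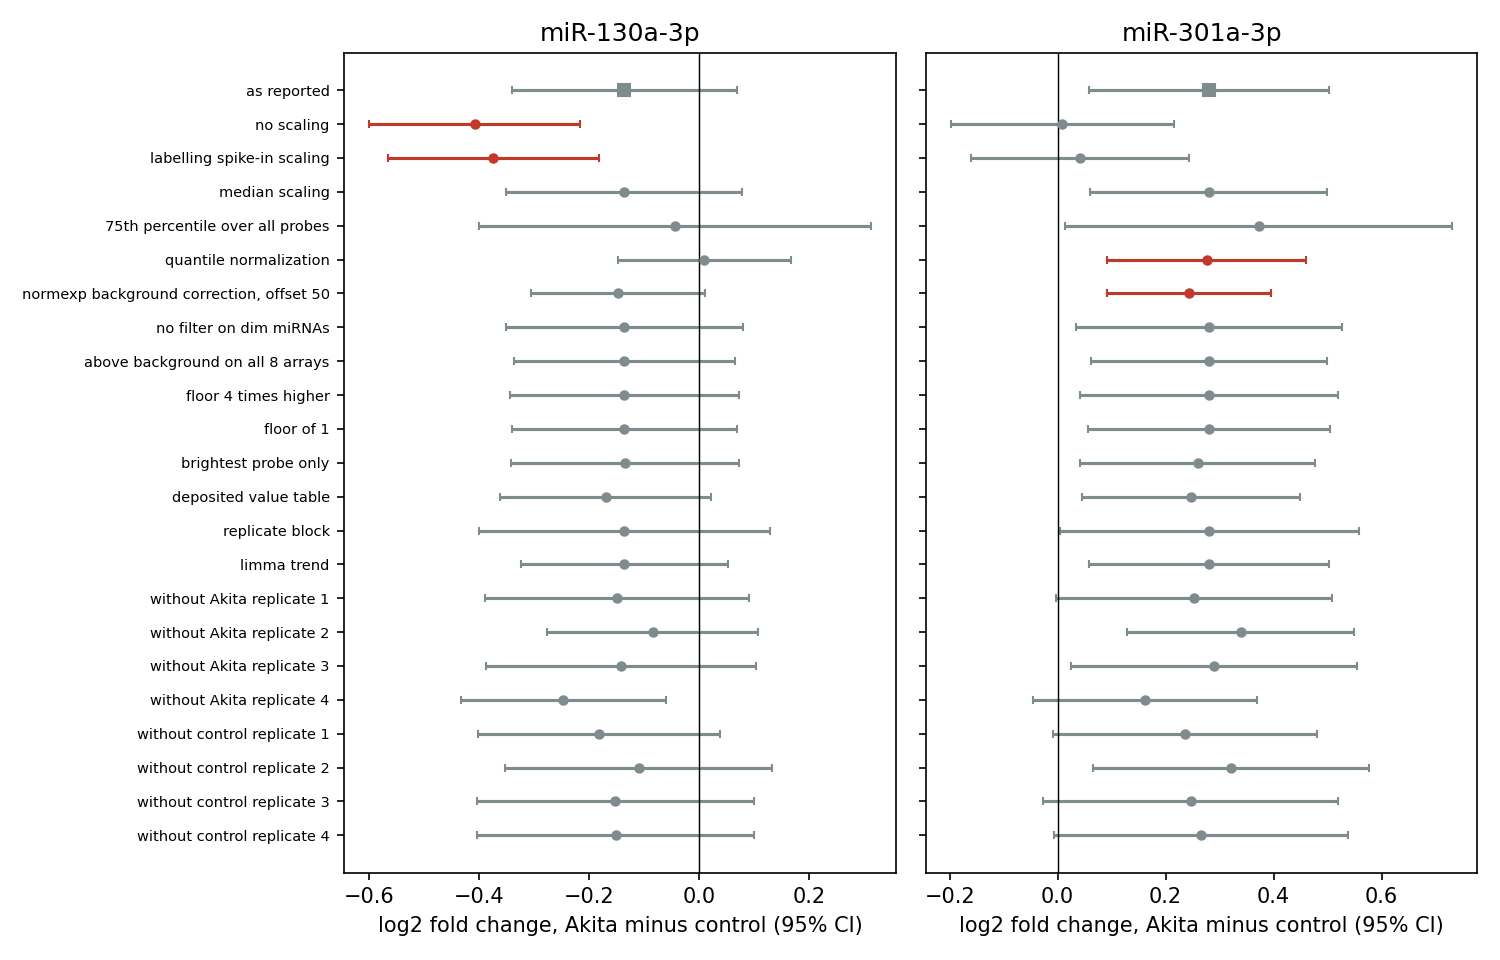
Log2 fold change (Akita minus control, with 95% interval) of miR-130a-3p and miR-301a-3p as reported (square) and under each other way of processing the arrays (circles), with red for an adjusted p under 0.05. MiR-301a-3p stays above 0 throughout, from 0.0085 to 0.37, while miR-130a-3p runs from -0.41 to 0.0092.

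The other products of the same hairpins were not detected. MiR-130a-5p, miR-130b-5p, miR-301a-5p and miR-301b-5p, the arms opposite the 4 members, were below background on all 8 arrays, with no probe above 4.77 units in Akita kidneys or 3.55 in control kidneys before scaling. The 2 loci that gave signal thus gave it from the 3p arm only, at the detection limit of these arrays.

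Among the RefSeq mature sequences, 4 further mouse miRNAs carry the same seed. They are shown because their shared seed and differing 3′ parts set them beside the members.
miR-130c: cAGUGCAAuguuccaaggugug
miR-6341: cAGUGCAAugauauugucacuau
miR-6389: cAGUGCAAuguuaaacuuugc
miR-721: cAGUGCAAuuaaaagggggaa
MiR-130c, miR-6341 and miR-6389 were below background on all 8 arrays. MiR-721 was above background on 1 of 4 Akita arrays and 2 of 4 control arrays and was not tested. Its scaled signal was 16.1, 62.6, 89.2 and 73.1 units in Akita kidneys 1 to 4 and 92.1, 22.9, 57.2 and 97.3 in control kidneys 1 to 4. The groups overlapped widely. Of the 8 mouse miRNAs looked at that are members or carry this seed, 2 were therefore above background in every kidney.

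A neighbouring set of miRNAs has a seed shifted by 1 base, with a run of 6 letters in common with AGUGCAA. Examples are shown with their own seeds in capitals.
miR-148a-3p: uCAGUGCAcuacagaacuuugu
miR-19b-3p: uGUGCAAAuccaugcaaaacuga
All 5 listed miRNAs of this kind were tested, and 2 fell in Akita kidneys and none rose. The median log2 fold change of the 5 was -0.14, against 0.06 for all tested miRNAs, and 6.32% of all tested miRNAs were called lower. MiR-148a-3p, which represses DNA methyltransferase mRNAs, fell by 0.63 (± 0.16 SE, adjusted p = 0.034). Its scaled signal was 53.3, 78.4, 57.9 and 64.6 in Akita kidneys 1 to 4, against 107.6, 111.8, 102.5 and 72.7 in control kidneys 1 to 4, with Akita kidney 2 overlapping control kidney 4. That call was lost without Akita replicate 1 or 3 or control replicate 1, 2 or 3 (adjusted p from 0.0622 to 0.0872), with the percentile over all probes (0.0961) and with no filter (0.378). Its size shrank to -0.12 with normexp background correction and to -0.13 with a floor 4 times higher, where it was not called (adjusted p = 0.222 and 0.277). MiR-19b-3p, a member of the proliferative miR-17-92 cluster, fell by 0.28 (± 0.07 SE, adjusted p = 0.034) with groups that did not overlap. Its call was lost without Akita replicate 1, 2 or 3 or control replicate 2, 3 or 4 (adjusted p from 0.0605 to 0.0960), and also with median scaling (adjusted p = 0.0520), a floor 4 times higher (0.0512) and no filter (0.239). With the percentile over all probes it stood at -0.18 (adjusted p = 0.535). MiR-148b-3p at 0.15, miR-152-3p at -0.12 and miR-19a-3p at -0.14 did not pass the threshold. With no scaling miR-152-3p and miR-19a-3p were called lower (-0.40 and -0.41), as they were with spike-in scaling (-0.36 and -0.38), and the sign of miR-148b-3p turned under both settings. With normexp miR-148b-3p was called higher (0.18, adjusted p = 0.0407) and the sign of miR-19a-3p turned.

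In pulmonary vessels the family has been placed upstream of PPARgamma and of miR-204, miR-424 (miR-322 in the mouse) and miR-503. Of these 3 miRNAs 2 were tested in the kidney, and none was called under the scaling used here. MiR-204-5p, enriched in tubular epithelium, had a log2 fold change of -0.09 (95% interval -0.41 to 0.23), and miR-322-5p had -0.05 (-0.25 to 0.14). MiR-503-5p was below background on all arrays. The signs of the 2 tested ones turned with the percentile taken over all probes (0.0016 and 0.038), and that of miR-204-5p also with normexp and with the higher floor. With no scaling both were called lower (-0.36 with adjusted p = 0.0322 and -0.33 with adjusted p = 0.0325), and miR-322-5p also with spike-in scaling (-0.29, adjusted p = 0.0481).

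The miRNAs whose profile over the 8 arrays was most like that of a member were not from the family. The measure was the root mean square difference of log2 values, each centred on its own mean, over the 257 miRNAs above background on all arrays. Nearest to miR-130a-3p were miR-378a-5p at 0.025, miR-16-5p at 0.030 and miR-26b-5p at 0.042. Nearest to miR-301a-3p were miR-331-3p at 0.035, miR-221-3p at 0.055 and miR-22-5p at 0.058. Of these 6 only miR-221-3p was called under the scaling used here (log2 fold change 0.33, adjusted p = 0.034), against 14.7% of all tested miRNAs. That call was lost without any single array except Akita replicate 2. Over the 22 alternatives its log2 fold change ran from 0.061 to 0.43 and its limma adjusted p from 0.012 to 0.49. Other settings also called some of the others. Examples are miR-16-5p, lower with no scaling (-0.43, adjusted p = 0.0048), and miR-22-5p, higher with normexp (0.20, adjusted p = 0.030). The 2 members stood 0.21 apart, and miR-301a-3p ranked 143 among the 256 miRNAs ordered by nearness to miR-130a-3p. The measure also reflects the signal strength of an array, which all miRNAs on it share.

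The kidney label was checked against marker miRNAs. Of 6 tubular miRNAs 5 were above background on all arrays and none was called, with miR-192-5p at 12.06 ± 0.18 in Akita kidneys and 12.07 ± 0.12 in control kidneys (SD, n = 4 each). Of 4 miRNAs of liver, muscle and brain 3 were below background everywhere, and the liver miRNA miR-122-5p was above it on 2 Akita and 3 control arrays. The vascular markers, of interest for a family known from vessels, were not called: miR-126a-3p of endothelium stood at 0.14 and miR-143-3p of smooth muscle at 0.0014. Leukocyte miRNAs moved with the groups: 6 of 7 were called lower, against 6.32% of all tested miRNAs. All 7 were above background on every array. Their summed signal was 918 to 1063 in Akita kidneys and 1505 to 1849 in control kidneys. Of 4 erythrocyte miRNAs 2 were below background on all arrays, and the summed signal of the other two was 625 to 839 in Akita kidneys and 111 to 1297 in control kidneys. The part of any of these cells in the signals of miR-130a-3p and miR-301a-3p was not tested. On the single slide used, row 2 held all Akita arrays and row 1 all control arrays. Position on the slide and group therefore cannot be told apart.

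**Figure D5:**
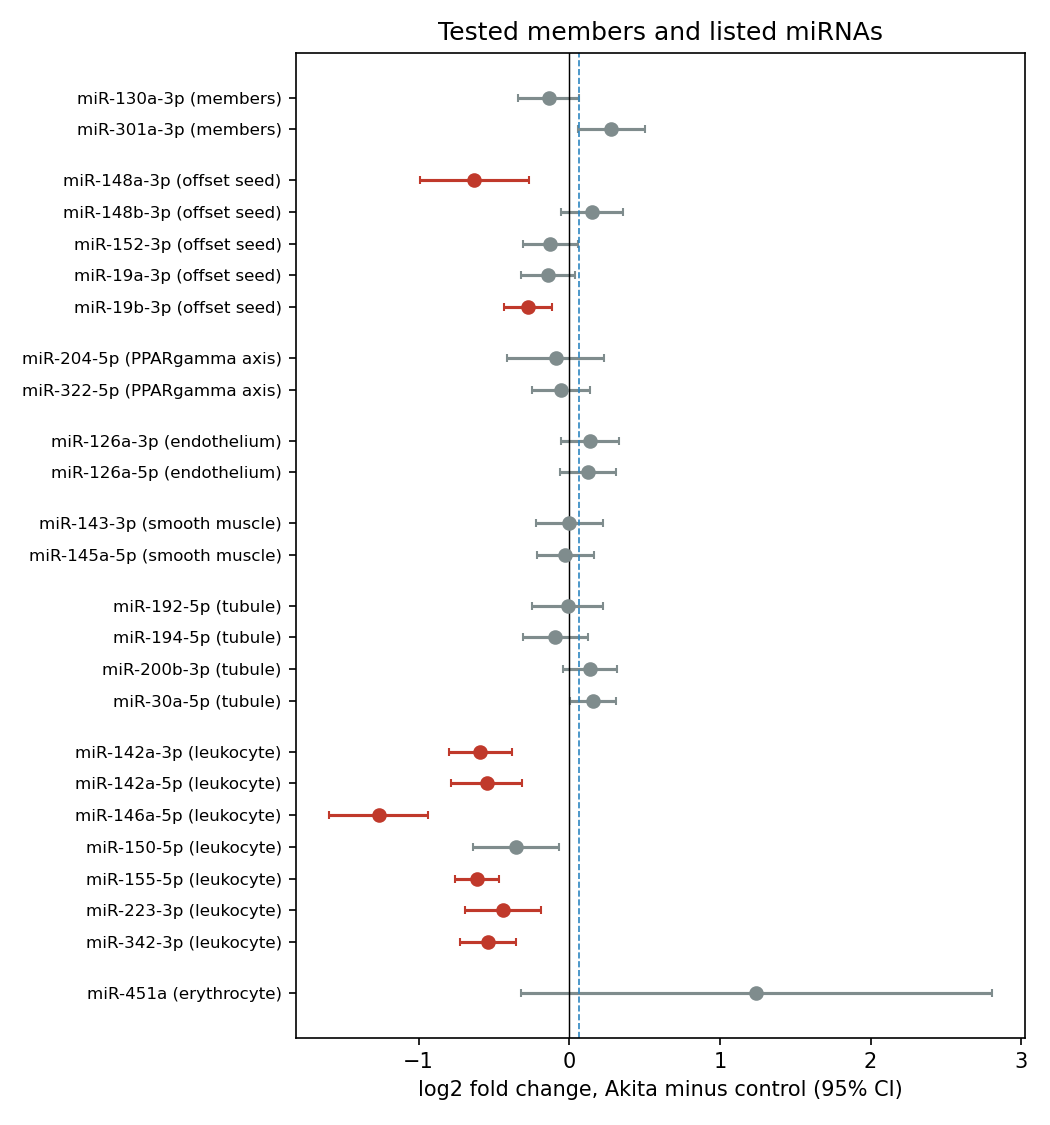
Log2 fold change (Akita minus control, with 95% interval from limma) of the tested members, of the listed miRNAs with a related seed or a reported place beside the family, and of cell type markers, with red for an adjusted p under 0.05. The dashed line marks the median of all tested miRNAs at 0.06; the 2 members lie on either side of it, and red points are found among offset-seed and leukocyte miRNAs.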

How the data were processed

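Total RNA (100 ng per labelling, per the labels' protocols) of 4 Akita and 4 control kidney samples was measured on 8 Agilent arrays of mouse miRNAs with 1 dye. The deposited scanner files hold spot intensity, extracted with Agilent Feature Extraction 12.0.3.1 per the submitters' processing notes; per the file headers a spatial background surface was subtracted and no normalization between arrays applied. The deposited value table holds a linear ratio per miRNA, normalized by the authors by steps not given in the sources used here; it served as an alternative. Its column medians ran from 1.03 to 1.22 in Akita and from 0.700 to 0.970 in control arrays, and its scale and centring are not stated.

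Control spots and outlier spots (2.03% to 3.02% per array) were left out, and no spot was saturated. Spots were averaged per probe, and a probe counted as above background where at least 0.5 of its spots were flagged so. Arrays were divided by the 75th percentile of 451 probes, probes summed per miRNA, sums under 23.8 (4.57 on the log2 scale) set to that floor, and groups compared with limma 3.58.1 in R 4.3.3 (two-sided, Benjamini-Hochberg over 285 miRNAs). The fit was tested on simulated data, drawn independently for each miRNA, with 60 of 285 miRNAs changed in each of 20 runs. It called 55.25% of 1.25-fold changes with the right sign, 86% of 1.5-fold changes and 96% of 2-fold changes. The simulation held no shift shared by the miRNAs of an array and left out the scaling step. These rates therefore do not give the share recovered on the real arrays. The number of arrays limits the precision. Named miRNAs are the members, the opposite arms, miRNAs of the same or an offset seed, a PPARgamma list, the 3 nearest profiles per member, cell type markers and the largest called rise and fall. The members and lists were chosen with earlier results of these data known. Sequences and loci are from RefSeq tables of GRCm38.p6. Alternatives were 5 scalings, normexp, 2 filters, 2 floors, the brightest probe, the value table, a replicate block, a variance trend and leaving out each array.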

Additional observations from a re-analysis of the deposited data

Results flagged for a closer look

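No value of miR-130a-3p or miR-301a-3p, nor their within-array difference, stood apart from its group by Dixon's ratio. Among the listed miRNAs, 5 values did, in 4 samples. MiR-155-5p stood at 5.469 in Akita replicate 4, against 5.52 to 5.53 in the other Akita kidneys, and at 6.009 in control replicate 4, against 6.16 to 6.18 in the other controls. MiR-204-5p stood at 6.169 in control replicate 1, against 6.42 to 6.47 in the others, and miR-192-5p at 11.89 in the same kidney, against 12.12 to 12.15. MiR-143-3p stood at 9.945 in control replicate 2, against 9.65 to 9.68. Chance alone flags about 1 in 20 of such groups, and 52 groups were checked.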

How the results depend on the processing

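The within-array difference between miR-130a-3p and miR-301a-3p kept its sign under all 10 alternatives run on it, from -0.43 to -0.39. With normexp and with the brightest probe only it was -0.39, each with an exact permutation p of 0.0286. In the other alternatives 1 array was left out, and it ran from -0.43 to -0.40. The p of 0.0286 there follows from the separation itself, since leaving out an array cannot make the groups overlap. Quantile normalization and the value table were not run on this difference. MiR-130a-3p was called lower with no scaling (-0.41) or spike-in scaling (-0.37), and its sign turned with quantile normalization (0.0092); with 1 array left out it ran from -0.25 to -0.09. MiR-301a-3p was called higher with quantile normalization (0.28) and with normexp (0.24), and ran from 0.16 to 0.34 with 1 array left out. In each of these 4 settings 1 member was called, against 0 as reported, and 0 with any single array left out. The cause was not tested. Of all tested miRNAs 38.2% were called with no scaling, 34.7% with spike-in scaling, 21.4% with quantile normalization and 31.2% with normexp. MiR-130b-3p and miR-301b-3p had no measured value, and with no filter all their values stood at the floor. Calls over all tested miRNAs numbered 42 as reported, 109 without scaling, 99 under spike-in scaling, 89 under normexp, 14 when the percentile was taken over all probes, 6 with no filter, 9 with a floor 4 times higher, and from 18 (without control replicate 3) to 37 (without control replicate 4) with 1 array left out; they were 20, 25 and 21 without Akita replicate 1, 2 or 3 and 21 without control replicate 2. Higher and lower calls numbered 24 and 18 as reported, 5 and 104 without scaling, 5 and 94 under spike-in scaling, 81 and 8 under normexp, and 10 and 4 when the percentile was taken over all probes.

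Samples of the same number did not deviate together (correlations over miRNAs of 0.096, -0.30, 0.34 and -0.35 for numbers 1 to 4), so the numbers were not taken as pairs. With the replicate block the log2 fold changes stayed at -0.14 and 0.28 (adjusted p = 0.50 and 0.20), and 25 miRNAs were called; miR-19b-3p lost its call (adjusted p = 0.173), and so did miR-221-3p (0.106).

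Signs turned for miR-148b-3p with no scaling (-0.12) or spike-in scaling (-0.089), for miR-22-5p under these settings (-0.075 and -0.042), and for miR-331-3p with no scaling (-0.018). They turned with normexp for miR-19a-3p (0.014), miR-204-5p (0.090) and miR-378a-5p (0.073), with the percentile over all probes for miR-204-5p (0.0016) and miR-322-5p (0.038), and with a floor 4 times higher for miR-204-5p (0.032). Signal near background limits miR-130b-3p and miR-301b-3p, for which the arrays give only that they lay below detection.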
